A study of Mus musculus with 20 samples.

Results

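The circadian clock and PAR bZIP genes described here were Dbp, Tef, Hlf, Nr1d1, Nr1d2, Per1, Per2, Per3, Arntl and Clock, 10 of the 34797 gene names that the array's non-control probes carry. They were measured in the diaphragm of mice 12 weeks after fibers were injected into the pleural cavity. The members were selected on their values in these same arrays, mouse by mouse, so their levels and differences are given as a description without a test. They were represented by 13 probes, of which Dbp, Nr1d2 and Per1 had 2 each. Where a gene had 2 probes, the one with the higher mean over the 20 arrays stands for it, and the other is given where it differed.

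All mice were female C57Bl/6 aged 8 weeks at injection, with 4 mice in each of 5 groups. The control group received 100 µL of the vehicle, 0.5% BSA/saline. The SFA and LFA groups received 25 µg per mouse of shortened or of long-fiber-enriched amosite asbestos in that vehicle, and the NTS and NTL groups received 5 µg per mouse of short or long carbon nanotubes. Asbestos and nanotubes were thus given at different doses, and the fiber comparisons made here were each fiber with vehicle and long with short fibers of one material. Mice were housed at most 5 to a cage on a 12-h light and dark cycle and killed with CO2. The hour of killing is not given in the sources used here, so the time of day cannot be told apart from the fiber for genes whose RNA cycles daily.

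The circadian clock is a transcriptional feedback loop that runs in nearly every cell, skeletal muscle included. BMAL1, encoded by Arntl, pairs with CLOCK on E-boxes in DNA and activates the Per and Cry genes, whose proteins return to the nucleus and block that activation. The same pair drives Nr1d1 and Nr1d2, encoding REV-ERB alpha and beta, which repress Arntl, and the PAR bZIP factors DBP, TEF and HLF, which bind D-boxes in output genes. RNA of Arntl therefore peaks at roughly the opposite time of day to RNA of Dbp, Nr1d1 and the Per genes.

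RefSeq promoters of build GRCm38.p6 were found for 9 of the 10 members, at 14 start sites, with none for Per2. The 250 bases before each start were searched on both strands for the E-box CACGTG, its variant CACGTT, the D-boxes TTATGTAA and TTACGTAA and the ROR and REV-ERB element TAGGTCA. The stretches around each match, with at most 24 bases on either side and the match in capitals, show what the loop's elements look like in these genes.
Per1, chr11:69098759-69098812, plus strand: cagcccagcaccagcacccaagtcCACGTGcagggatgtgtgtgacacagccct
Tef, chr15:81802522-81802575, plus strand: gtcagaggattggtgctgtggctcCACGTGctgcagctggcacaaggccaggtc
Tef, second start, chr15:81811252-81811305, plus strand: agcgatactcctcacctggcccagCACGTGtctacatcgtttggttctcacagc
Nr1d1, chr11:98775378-98775429, minus strand: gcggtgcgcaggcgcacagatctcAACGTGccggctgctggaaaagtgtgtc
Per3, chr4:151044792-151044894, minus strand: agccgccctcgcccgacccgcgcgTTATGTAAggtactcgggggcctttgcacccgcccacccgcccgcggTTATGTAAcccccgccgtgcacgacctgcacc
Ciart, chr3:95882243-95882368, minus strand: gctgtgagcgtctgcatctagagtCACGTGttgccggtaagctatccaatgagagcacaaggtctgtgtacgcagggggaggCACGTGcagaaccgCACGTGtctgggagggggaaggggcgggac
Ciart, a clock repressor outside the 10 members, is shown because its RNA paralleled Dbp over all mice, though weakly within groups. Of the 14 member start sites, 3 held CACGTG, against 6.02% of all 32851 promoters, and 1 held TTATGTAA, against 0.819%. The variant CACGTT stood before Nr1d1 only, where it reads AACGTG on this strand, and in 3.85% of all promoters. TTACGTAA, in 0.113% of all promoters, and TAGGTCA, in 2.23%, stood before no member. The windows of Dbp, Hlf, Nr1d2, Arntl and Clock held none of these letters, which says nothing about elements outside them.

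Levels below are log2 of the scanner's processed signal minus the 75th percentile of that array, so 0 is a probe at that percentile and a difference of 1 is 2-fold. Levels of different probes are not compared with each other. The 75th percentile signal lay between 292 and 991 on the 20 arrays, 53.0% to 68.1% of probes were well above background and no spot was saturated. The 12 skeletal muscle markers were well above background on every array, and their mean level lay between 7.06 and 8.92. An index of RNA integrity was taken from 1126 transcripts with probes at least 1000 bases apart. It is the signal of the probe nearest the 5′ end over that of the probe nearest the 3′ end. Each transcript's mean over the 20 arrays was subtracted, so 0 is the average array. An index of 0 therefore does not mean equal signal at both ends. The index averaged 0.12 ± 0.32 (SD, n = 4) in control mice, -0.15 ± 0.36 in SFA, -0.16 ± 0.25 in LFA, 0.22 ± 0.40 in NTS and -0.04 ± 0.30 in NTL, in log2 units. It was lowest on the array of SFA replicate 1, at -0.56. Among the controls it was lowest in replicate 2, at -0.34, which also had the lowest 75th percentile signal and the fewest probes well above background of the 20 arrays.

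Dbp, the PAR bZIP factor with the widest daily swing in many tissues, was the member furthest below vehicle after short asbestos. Its control mice measured 5.51, 6.52, 5.85 and 5.84. The SFA mice measured 3.74, 3.61, 4.18 and 3.18, and the LFA mice 3.88, 4.85, 4.28 and 4.47. The NTS mice measured 4.98, 4.98, 5.07 and 6.06, and the NTL mice 4.67, 5.77, 3.701 and 5.09. Every SFA mouse and every LFA mouse lay below every control mouse, while the nanotube groups overlapped the controls. The difference from control was -2.25 ± 0.39 on the log2 scale (SE of the fit, n = 4 against 4) in SFA, a 4.75-fold lower signal, and -1.56 ± 0.39 in LFA, 2.94-fold lower. It was -0.65 ± 0.39 in NTS and -1.12 ± 0.39 in NTL. In descending order the group means were control at 5.93, NTS at 5.27, NTL at 4.81, LFA at 4.37 and SFA at 3.68, and each neighbor in that order overlapped the next. The second Dbp probe followed the first over the 20 mice with Pearson's r = 0.99, and its difference in SFA was -2.32 ± 0.34.

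Among the 36931 probes tested, the second Dbp probe had the lowest moderated t of SFA against control and the first Dbp probe the 3rd lowest, with Per2 the 4th, Hlf the 9th and Per1 the 14th. Arntl had the highest. Since these genes were chosen by such values, the places describe the arrays and test nothing. No probe of any gene passed limma's adjusted p in that comparison, as given below.

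Tef, another PAR bZIP factor, had smaller differences than Dbp in each fiber group. Its control mice measured 4.95, 6.10, 5.46 and 5.39. The SFA mice measured 4.84, 4.50, 4.78 and 4.12, and the LFA mice 4.26, 4.38, 4.83 and 4.46, so both asbestos groups lay wholly below the controls. The differences from control were -0.91 ± 0.33 in SFA, -0.99 ± 0.33 in LFA, -0.39 ± 0.33 in NTS and -0.76 ± 0.33 in NTL. The NTS mice lay between 4.63 and 5.74 and the NTL mice between 4.04 and 5.57, overlapping the controls.

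Hlf, the third PAR bZIP factor, separated the mice differently. Control mice measured 1.004, 0.84, 1.71 and 1.32, and NTS mice 1.11, 0.87, 1.21 and 0.98. LFA mice measured -0.28, 0.13, -0.02 and -0.72, and NTL mice -0.07, 0.02, -0.71 and 0.39. SFA mice measured -0.52, 0.87, -0.60 and -0.45. The control and NTS mice thus lay together, every LFA and NTL mouse lay below both of them, and SFA replicate 2 lay with the controls while its 3 group mates lay with the long-fiber mice. The differences from control were -1.39 ± 0.33 in SFA, -1.44 ± 0.33 in LFA, -0.17 ± 0.33 in NTS and -1.31 ± 0.33 in NTL. Without SFA replicate 2 the SFA difference was -1.74, and within the pair of slides that held SFA and control arrays it was -0.74 and -2.23.

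**Figure D1:**
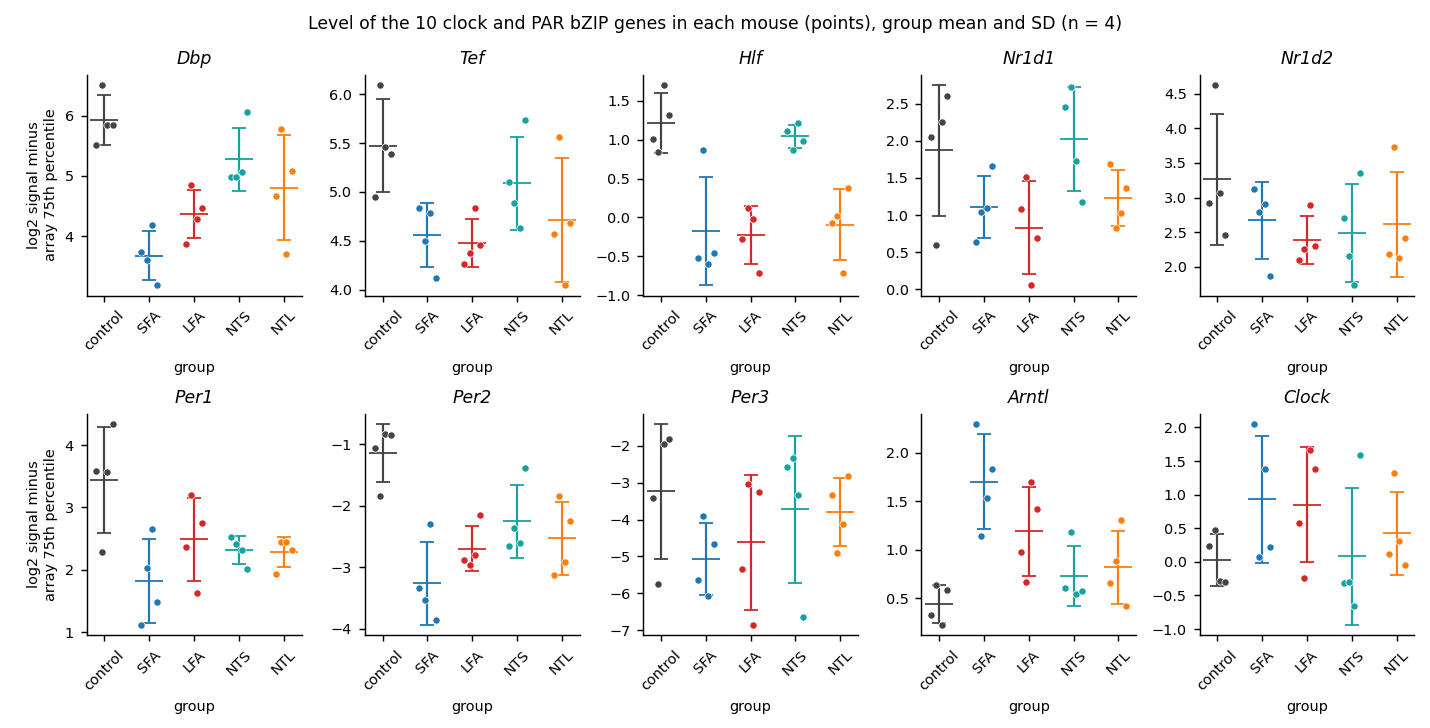
Level of each of the 10 members in each mouse (points), by group, with the group mean and SD (n = 4); the vertical axes are log2 signal minus the array's 75th percentile and differ between panels. Every SFA mouse lay below every control mouse for Dbp, Tef and Per2 and above every control mouse for Arntl.

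The REV-ERB genes, which encode the repressors of Arntl, did not separate any fiber group from the controls. Nr1d1 measured 2.05, 0.60, 2.25 and 2.61 in control mice, 0.64, 1.04, 1.09 and 1.67 in SFA and 1.08, 1.51, 0.05 and 0.69 in LFA. It measured 2.46, 2.73, 1.73 and 1.18 in NTS and 1.68, 0.83, 1.03 and 1.37 in NTL. All 4 fiber groups overlapped the controls, and SFA, LFA and NTL did so only through control replicate 2, the lowest control. The differences were -0.76 ± 0.43 in SFA, -1.04 ± 0.43 in LFA, 0.15 ± 0.43 in NTS and -0.65 ± 0.43 in NTL, and without control replicate 2 those of SFA, LFA, NTS and NTL were -1.19, -1.47, -0.28 and -1.07. The sign in NTS thus turned with that 1 mouse. Within slides the NTS difference was -1.16 and 1.27.

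For Nr1d2 the 2 probes did not follow each other, with r = 0.10 over the 20 mice. The brighter probe lay between 2.45 and 4.63 in control mice and between 1.73 and 3.73 in the fiber mice, with differences of -0.60 ± 0.47 in SFA, -0.88 ± 0.47 in LFA, -0.78 ± 0.47 in NTS and -0.65 ± 0.47 in NTL. The dimmer probe gave -0.52 ± 0.31, -0.75 ± 0.31, -0.48 ± 0.31 and -0.34 ± 0.31 in the same order. Control replicate 2 was the highest control on the brighter probe, at 4.63, and the lowest on the dimmer one, at 0.56. Without that mouse the brighter probe's differences were -0.14 in SFA, -0.43 in LFA, -0.33 in NTS and -0.20 in NTL.

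The PER proteins are the repressors that close the loop, and Per2 set the fiber mice apart most clearly of the 3 genes. Its control mice measured -1.06, -1.84, -0.83 and -0.84. SFA mice measured -3.34, -3.54, -2.30 and -3.87, and LFA mice -2.88, -2.96, -2.81 and -2.15. NTS mice measured -2.65, -2.36, -2.61 and -1.38, and NTL mice -3.13, -1.84, -2.92 and -2.24. Every SFA, LFA and NTL mouse lay below every control mouse, NTL replicate 2 by a narrow margin, and NTS replicate 4 lay among the controls. The differences were -2.12 ± 0.39 in SFA, 4.35-fold lower, -1.56 ± 0.39 in LFA, -1.11 ± 0.39 in NTS and -1.39 ± 0.39 in NTL.

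Per1, which also answers light and glucocorticoids quickly, had control levels of 3.58, 2.29, 3.57 and 4.34. SFA mice measured 1.12, 2.02, 2.65 and 1.49 and LFA mice 2.37, 3.20, 1.63 and 2.75. NTS mice lay between 2.01 and 2.53 and NTL mice between 1.94 and 2.45. Control replicate 2 lay within each fiber group's range, and the other 3 controls lay above all 16 fiber mice. The differences were -1.62 ± 0.41 in SFA, -0.96 ± 0.41 in LFA, -1.13 ± 0.41 in NTS and -1.16 ± 0.41 in NTL. A second, dimmer Per1 probe did not follow the first (r = -0.07) and gave -0.13 ± 0.54 in SFA and -1.62 ± 0.54 in LFA, the reverse of the order on the first probe.

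Per3 was near the detection limit, well above background on 3 of 4 control arrays, 2 of 4 SFA arrays, 3 of 4 LFA and NTS arrays and 4 of 4 NTL arrays. Its levels ran from -5.76 to -1.81 in control mice and from -6.85 to -2.32 in the fiber mice, with differences of -1.83 ± 1.03 in SFA, -1.38 ± 1.03 in LFA, -0.48 ± 1.03 in NTS and -0.56 ± 1.03 in NTL. These values do not separate any group from the controls.

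Arntl, the activator whose RNA runs opposite to that of Dbp in a cycling tissue, was higher in the asbestos mice. Control mice measured 0.33, 0.63, 0.23 and 0.58. SFA mice measured 2.30, 1.14, 1.54 and 1.83, and LFA mice 0.98, 0.66, 1.70 and 1.41. NTS mice measured 0.61, 1.18, 0.54 and 0.58, and NTL mice 0.66, 0.88, 1.30 and 0.42. Every SFA mouse and every LFA mouse lay above every control mouse, LFA replicate 2 by a small margin, and the nanotube groups overlapped the controls. The differences were 1.26 ± 0.29 in SFA, 2.39-fold higher, 0.75 ± 0.29 in LFA, 0.28 ± 0.29 in NTS and 0.37 ± 0.29 in NTL. The group means, in ascending order control at 0.44, NTS at 0.73, NTL at 0.82, LFA at 1.19 and SFA at 1.70, stood in the reverse of the order for Dbp, and neighbors overlapped.

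Clock, the partner of BMAL1, cycles weakly in most tissues. It lay between -0.30 and 0.48 in control mice, between 0.07 and 2.05 in SFA, between -0.23 and 1.67 in LFA, between -0.66 and 1.59 in NTS and between -0.05 and 1.32 in NTL. The differences, 0.90 ± 0.54 in SFA, 0.82 ± 0.54 in LFA, 0.05 ± 0.54 in NTS and 0.39 ± 0.54 in NTL, left every fiber group overlapping the controls.

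**Figure D2:**
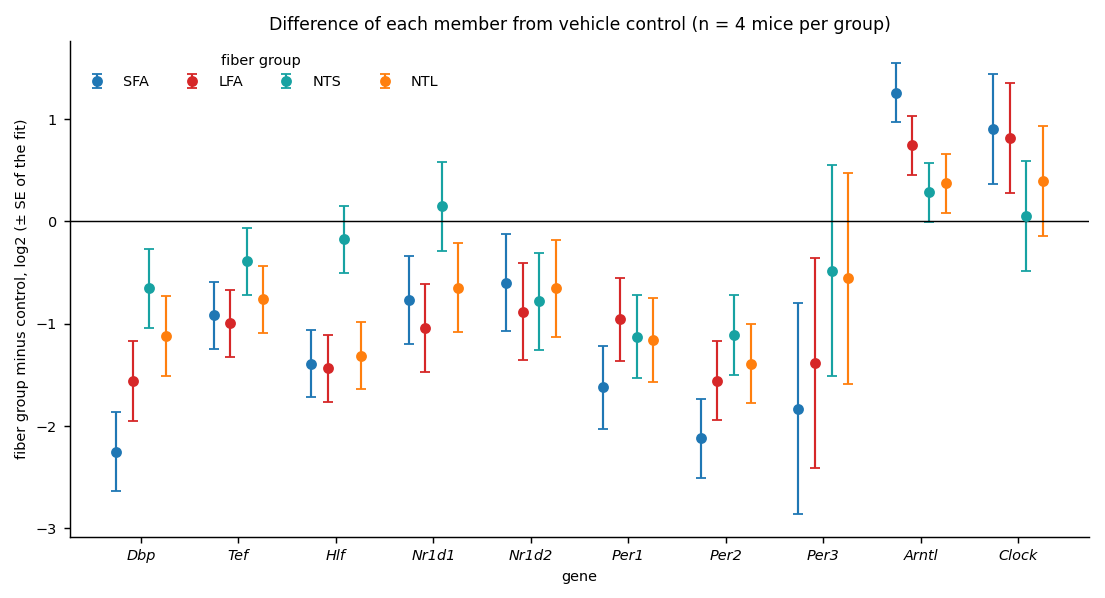
Difference of each member from vehicle control in each fiber group, in log2 units with the SE of the fit (n = 4 mice per group). In SFA the 8 members other than Arntl and Clock lie below 0 and both activators above it, and in NTS the points of Hlf, Nr1d1 and Clock lie closest to 0.

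Counting members whose groups did not overlap, SFA lay wholly below control for 3 of 10 (Dbp, Tef and Per2) and wholly above it for 1 (Arntl), where 0.914% and 0.549% of all tested probes did so. LFA lay wholly below for 4 (Dbp, Tef, Hlf and Per2) and wholly above for 1 (Arntl), against 11.7% and 4.57% of all probes. NTL lay wholly below for 2 (Hlf and Per2) and above for none, against 13.8% and 6.37%, and NTS did neither for any member, against 0.889% and 0.614%. The members were selected on these contrasts, so nothing is read from the shares. The median difference of the 10 members was -1.15 in SFA, -1.02 in LFA, -0.71 in NTL and -0.43 in NTS, where the medians of all tested probes were -0.11, -0.28, -0.25 and -0.06. The median of all tested probes thus sat below 0 by 0.25 or more in both long-fiber groups, and the members' differences there are to be read against that shift.

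Between long and short fibers of one material the members differed less. In LFA against SFA, Dbp was higher by 0.69 ± 0.39 and Arntl lower, at -0.51 ± 0.29, and the groups overlapped for all 10 members. In NTL against NTS, Hlf differed most, at -1.14 ± 0.33, with every NTL mouse below every NTS mouse, and Dbp differed by -0.47 ± 0.39. NTL and NTS arrays shared slide 2 only, so slide and nanotube length were largely confounded. Over the alternative settings the Hlf difference ran from -1.30 to -0.93. The length effect in asbestos minus that in nanotubes was 1.16 ± 0.55 for Dbp, 1.09 ± 0.46 for Hlf and -0.60 ± 0.41 for Arntl.

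Across the 20 mice, Dbp and Arntl ran in opposite directions, with Pearson's r = -0.74 and Spearman's rho = -0.78. After each group's mean was subtracted r was -0.26. Without the 2 mice farthest from the median of Dbp, r between Arntl and Dbp was -0.72. These are descriptions over mice that share a tissue and an array platform, and members were selected on the same values.

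Dbp and Tef kept together within groups as well, with r = 0.86 and rho = 0.82 over the mice and r = 0.86 on deviations from the group means. Dbp and Per2 gave r = 0.84 and rho = 0.86, and 0.54 on deviations. Hlf and Arntl gave r = -0.73, and -0.66 on deviations. Not every pair that shares a phase did so: Dbp and Nr1d1 gave r = 0.27, and -0.40 on deviations, and Nr1d1 and Nr1d2 gave -0.37, and -0.75 on deviations. Over all 45 pairs r ran from -0.80 to 0.86. On deviations the 5′ to 3′ index of the array gave r = -0.55 with Dbp, -0.81 with Tef, 0.85 with Nr1d1 and -0.88 with Nr1d2. Its part in these pairs was not tested.

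**Figure D3:**
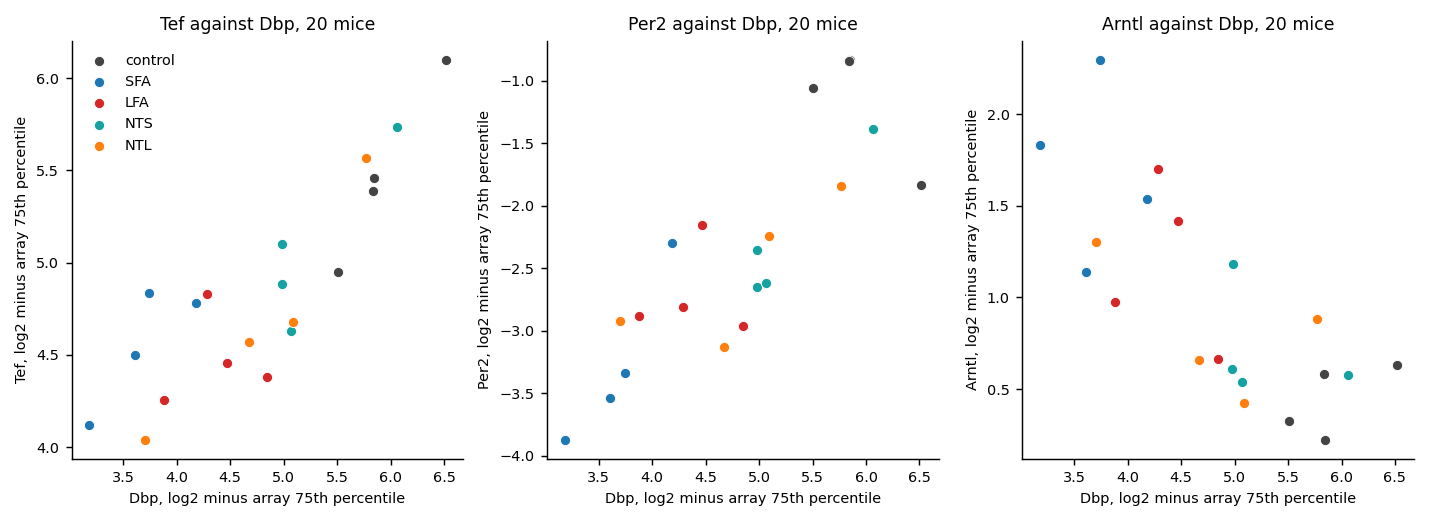
Tef, Per2 and Arntl against Dbp in the 20 mice, colored by group, all axes in log2 signal minus the array's 75th percentile. Tef (r = 0.86) and Per2 (r = 0.84) lie along a rising line and Arntl (r = -0.74) along a falling one, with SFA mice at the low Dbp end.

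RNA integrity moved with some members. Over the 20 arrays the 5′ to 3′ index gave r = 0.87 with Nr1d1 and 0.78 with Per3, -0.89 with Clock and -0.62 with Nr1d2, but 0.06 with Dbp, 0.08 with Per2 and -0.48 with Arntl. On deviations from the group means the index gave r = -0.81 with Tef, -0.55 with Dbp and -0.88 with Nr1d2. Within SFA the index was lowest in replicate 1, at -0.56, and highest in replicate 4, at 0.31. Dbp measured 3.74 and Arntl 2.30 in replicate 1, and 3.18 and 1.83 in replicate 4.

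With the index as a covariate, an alternative chosen after the data were seen, the SFA differences were -2.50 for Dbp, -2.29 for Per2, -1.31 for Hlf and 1.15 for Arntl, while that of Clock was 0.34 and that of Nr1d1 -0.33. The SFA difference of Per3 was -0.84 and that of Per1 -1.41, while those of Nr1d2 and Tef were -1.09 and -1.21. The differences of Clock, Nr1d1 and Per3 were thus much smaller with the covariate, and those of Nr1d2 and Tef were larger. The part that RNA integrity played in the other differences was not tested.

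**Figure D4:**
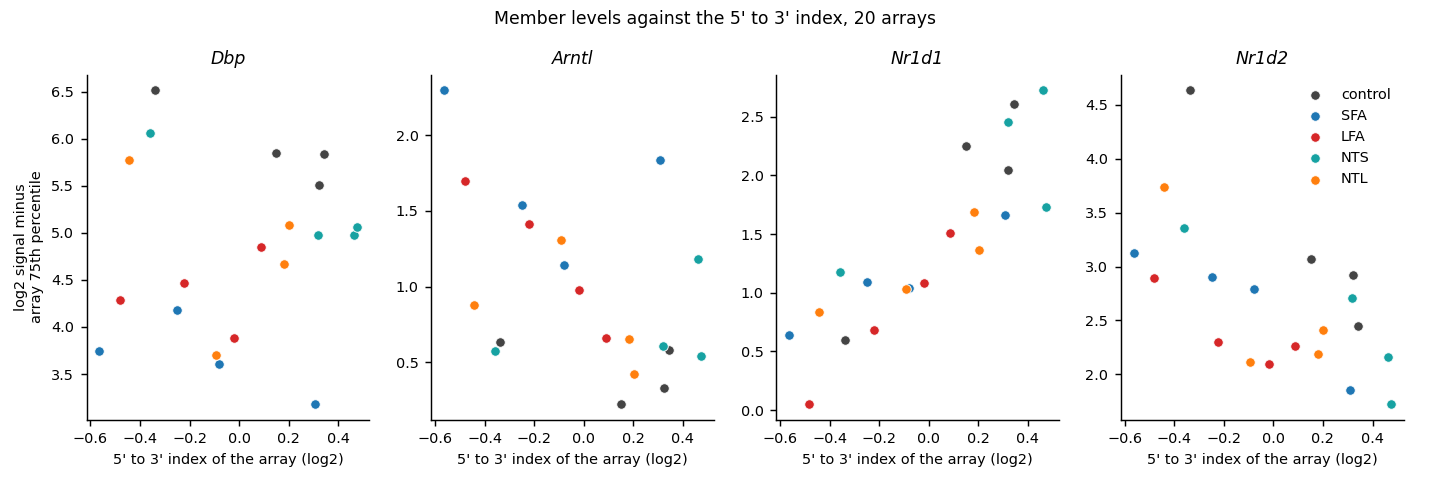
Levels of Dbp, Arntl, Nr1d1 and Nr1d2 (log2 signal minus the array's 75th percentile) against the 5′ to 3′ index of the same array, 20 arrays colored by group. Nr1d1 follows the index upward (r = 0.87) and Nr1d2 downward (r = -0.62), and Dbp shows no such trend over the 20 arrays (r = 0.06).

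The arrays were scanned on 3 slides, each holding control and fiber mice, but the groups were not balanced over them. Slide 1 held no SFA or NTL array and slide 3 no NTS array, and each of these slides held 1 control. The within-slide differences thus rest on few arrays, for LFA on slide 3 on 1 against 1. Within the slides that held both SFA and control arrays, Dbp differed by -2.34 and -2.17, Per2 by -1.99 and -2.25, and Arntl by 1.24 and 1.46. LFA differed from control within the 3 slides by -2.13 to -1.004 for Dbp and by 0.44 to 0.97 for Arntl.

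In bulk tissue, fewer cells of a type and less RNA per cell cannot be told apart, and the makeup of the diaphragm differed between groups. The mean of the 10 macrophage markers lay between 3.46 and 4.39 in LFA and NTL mice and between 1.93 and 2.80 in the other 3 groups, and 9 of 10 had higher means than control in each of SFA, LFA and NTL, against 6 of 10 in NTS. All 12 muscle markers had lower means than control in SFA, LFA and NTL, and the list's group means were 8.45 in control, 8.05 in SFA, 7.44 in LFA, 8.24 in NTS and 7.14 in NTL. Dbp was lowest in SFA, whose macrophage list averaged 2.52 against 2.20 in control. Over the mice r between Dbp and the macrophage list was -0.25, and 0.23 on deviations from the group means. With Dbp the muscle list gave r = 0.22 over the mice and -0.39 on deviations. The fibroblast and matrix list gave -0.12 with Dbp over the mice and 0.71 on deviations. Hlf gave -0.67 with the macrophage list over the mice and -0.43 on deviations. Transcripts of liver varied widely between arrays, from -2.64 to 8.82 for the mean of 8 markers. Of these 8, 7 were well above background on every array. The liver mean was 0.61 ± 2.80 (SD, n = 4) in control, 2.84 ± 4.33 in SFA, 3.01 ± 5.32 in LFA, 4.10 ± 5.42 in NTS and 3.14 ± 2.035 in NTL. All 8 had higher means than control in each fiber group. The liver list gave r = -0.16 with Dbp and -0.04 with Arntl. The mean of 7 fibroblast and matrix markers was 4.88 in control, 5.25 in SFA, 5.73 in LFA, 4.63 in NTS and 6.13 in NTL. In the same order the 7 mesothelial markers averaged 3.03, 2.86, 3.35, 2.70 and 2.62, the 7 adipocyte markers 4.99, 4.76, 4.22, 4.71 and 3.74, and the 6 B and plasma cell markers 2.16, 2.45, 3.36, 1.498 and 3.53. The part of these cells in the members' differences was not tested.

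The rest of the clock was followed with 16 further core and accessory genes, all of which had a tested probe. In SFA against control, limma called 0 of these 16 genes at a 2-fold change and an adjusted p under 0.05 over all probes, as it called 0% of the 36931 probes (850 had an unadjusted p under 0.05, 2 of them among the 16). In NTS against control it also called 0 of the 16, and 0% of all probes (1300 at an unadjusted p under 0.05, 1 among the 16). In LFA it called 1, Ciart, lower, against 3.96% of all probes in either direction and 1.75% lower. In NTL it called 0, against 6.8% of all probes called in either direction and 3.17% called lower. At an unadjusted limma p under 0.05 in NTL were 4 of the 16 and 8693 of the 36931 probes. Between long and short fibers limma called 0 of the 16 as well. It called 1.16% of all probes in LFA against SFA and 7.58% in NTL against NTS, 2.66% lower in the second. At an unadjusted limma p under 0.05 were 2 of the 16 and 4643 of all probes in LFA against SFA. In NTL against NTS they were 3 of the 16 and 9221 of all probes.

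Ciart, which represses CLOCK:BMAL1 and is a direct target of it, had the lowest differences of the list and is named Gm129 on the array. Control mice measured -3.06, -4.09, -1.87 and -2.40, and SFA mice -6.79, -6.10, -5.85 and -7.36. LFA mice measured -5.60, -3.68, -7.24 and -5.22, with 1 of 4 arrays well above background. NTS mice lay between -5.06 and -3.85 and NTL mice between -4.88 and -3.62. No SFA array was well above background, so the size of the difference there is uncertain. The control mean was 4.52-fold above the mean of the SFA arrays' lowest signals well above background, a value that leaves out the spread of the controls. In SFA Ciart did not pass the threshold, with a limma adjusted p of 0.175 (unadjusted 9.47e-06). In LFA it passed at a limma adjusted p of 0.0243, with a fitted difference of -2.58 ± 0.60 whose size is uncertain because 3 of the 4 LFA arrays were not well above background, and that call was lost without any 1 of control replicates 1, 3 and 4 or LFA replicates 1, 3 and 4. In NTL the difference was -1.48 ± 0.60 (limma adjusted p 0.144) and in NTS -1.50 ± 0.60 (limma adjusted p 0.9999). Over the 20 mice Ciart gave r = 0.78 with Dbp and -0.85 with Arntl, and 0.27 and -0.59 on deviations from the group means. These r include the SFA and LFA values that were not well above background.

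The other 15 genes did not pass in any of the 6 comparisons. Of the cryptochromes, which act with the PERs, Cry1 differed from control by 0.78 in SFA and -0.50 in LFA and Cry2 by -0.31 and -0.62. Of the transcription factors, Bhlhe40 differed by -0.77 in SFA, Bhlhe41 by -0.80, Nfil3, the repressor that shares D-boxes with the PAR bZIP factors, by 0.23, Npas2 by 0.35 and Arntl2 by 0.46. Rora and Rorb differed by -0.02 and 0.05. The kinases, ubiquitin ligase parts and accessory genes Csnk1d, Csnk1e, Fbxl21, Btrc, Timeless and Tipin lay between -0.04 and 0.50 in SFA. These values are of each gene's brightest probe. Dimmer probes of Arntl2, Csnk1d, Csnk1e, Btrc, Timeless, Cry2 and Bhlhe41 averaged lower in SFA than in control, and those of Rora, Rorb and Fbxl21 higher. For example, a dimmer Csnk1e probe averaged 0.68 in SFA against 1.07 in control, and that of Btrc -2.76 against -2.37. Npas2 was well above background on 0 of 4 control arrays.

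**Figure D5:**
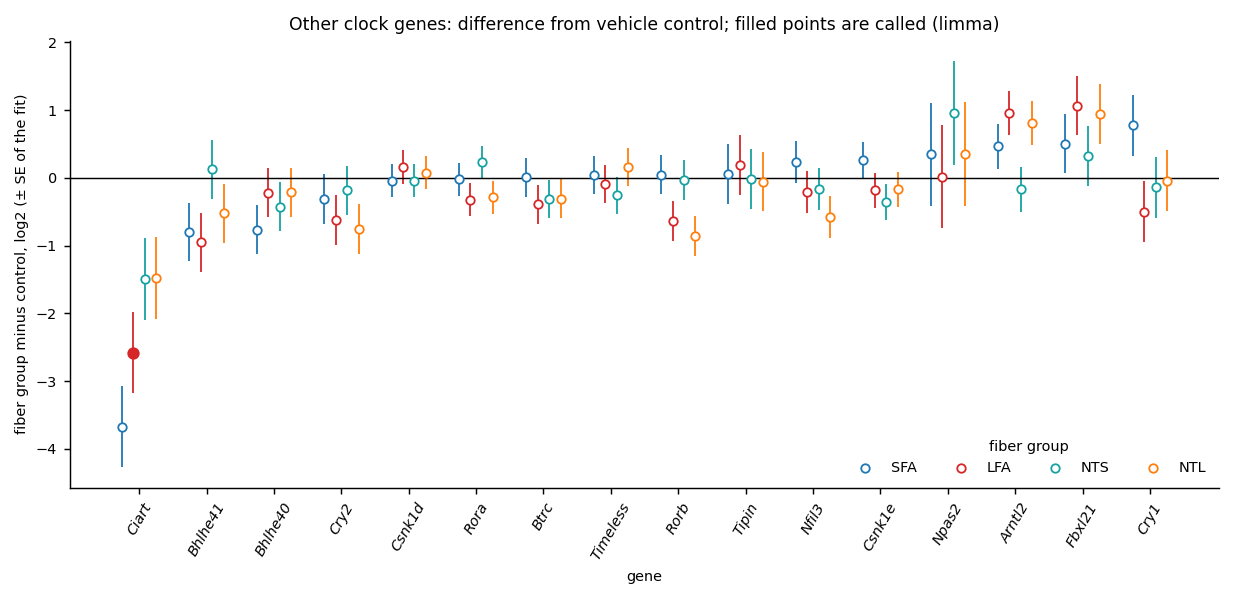
Differences of the 16 other clock genes from control in each fiber group (log2, bars are the SE of the fit, n = 4 per group), ordered by the SFA difference; filled points passed limma's adjusted p and the 2-fold limit. Ciart lies lowest in all 4 fiber groups and is called in LFA alone.

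A list of 22 genes that follow the clock in muscle or other tissues was read the same way. In SFA and in NTS limma called 0 of the 22, with 3 and 2 at an unadjusted p under 0.05. Usp2, a deubiquitinase driven by CLOCK:BMAL1, measured 3.89, 5.01, 3.90 and 3.82 in control mice and 3.08, 3.06, 3.10 and 2.80 in SFA. It was lower than control by -1.15 ± 0.34 in SFA and -1.09 ± 0.34 in NTS, at limma adjusted p of 0.998 and 0.9999, and fell by 1.53 ± 0.34 in LFA (limma adjusted p 0.0186) and 1.52 ± 0.34 in NTL (limma adjusted p 0.0109). In all 4 fiber groups every mouse lay below every control mouse for Usp2.

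In LFA limma called 3 of the 22, all lower: Usp2, Tcap, a sarcomere protein gene, and Gys1, the muscle glycogen synthase gene, against 3.96% of all probes. With the slide as a block 1 was called and in a fit of those 2 groups alone 0, and none was called without LFA replicate 1 or 2. In NTL limma called 9, against 6.8% of all probes, and 3 with the slide block. Lower were Usp2, Tcap, Gys1, Nampt, which makes the NAD precursor NMN, Tsc22d3 and Klf9, both glucocorticoid-induced, Pdk4, a brake on pyruvate oxidation, and Pparg, and higher was Lonrf3. Pdk4 fell by 1.80 ± 0.37 in NTL (limma adjusted p 0.0065), and in NTL against NTS it was called lower and Cdkn1a, a cell cycle inhibitor gene, higher, against 7.58% of all probes, and both calls were lost with the slide block. The muscle, macrophage and adipocyte lists also differed from control in LFA and NTL, as given above. How these genes relate to those lists was not tested. The list's median difference was -0.32 in SFA, -0.60 in LFA, -0.69 in NTL and -0.27 in NTS.

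Per1, Tsc22d3 and Klf9 also answer to glucocorticoids, so 10 genes of that response were read beside them. In SFA and NTS limma called 0 of the 10, with 3 at an unadjusted p under 0.05 in each. Ddit4, which restrains mTOR signaling, gave -1.06 ± 0.32 in SFA and -0.87 ± 0.32 in NTS (limma adjusted p 0.998 and 0.9999). In LFA limma called Trim63, the muscle ubiquitin ligase MuRF1, lower, against 1.75% of all probes called lower, and in NTL Trim63 and Zbtb16, both lower, against 3.17%. The LFA call was lost by quantile normalization, without a filter, with the slide or the replicate number as a block, in the fit of 2 groups, and without any 1 of the control replicates, LFA replicates 1, 2 and 4 or NTL replicates 1 and 4. Fkbp5, among the most direct glucocorticoid targets, differed by -0.24 in SFA, 0.15 in LFA, -0.41 in NTS and -0.39 in NTL. The list did not move in one direction: 7 of the 10 lay below control in SFA, 6 in LFA, 7 in NTS and 7 in NTL. Angptl4 averaged 4.71 in SFA and 4.67 in LFA against 3.51 in control. Mt2 averaged 4.87 in LFA and 4.85 in NTL against 3.98. Neither was called.

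Likeness to Dbp and to Arntl was measured as Pearson's r over the 20 mice among 15198 named genes with a tested probe, a pool that left out the 10 members and predicted names, and with them Ciart, which the array calls Gm129. Within that pool the highest r to Dbp belonged to Clgn (0.79), Gpr146 (0.77), Tspan4 (0.70), Vps11 (0.70) and Ddit4 (0.70). The lowest belonged to Slc16a9 (-0.75), Stra6 (-0.70), Ypel2 (-0.66), Foxs1 (-0.63) and Dhrs9 (-0.62). The highest r to Arntl belonged to Fancb (0.81), Tmigd1 (0.77), Mycn (0.74), Lpar4 (0.72) and Fam155a (0.69), and the lowest to Clgn (-0.80), Ephb4 (-0.71), Zfp697 (-0.69), Dopey1 (-0.68) and Eda2r (-0.65).

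When group means were removed, r to Dbp was 0.84 for Tspan4 (13th highest of the pool), -0.85 for Stra6 (2nd lowest) and -0.79 for Slc16a9 (9th lowest). Clgn, first in the pool for both genes over the mice, had r to Dbp of 0.45 on deviations, the 4053rd place. Tspan4 was also in the list of clock-following genes, and measured 2.52, 3.98, 2.63 and 2.71 in control mice and 2.51, 2.33, 2.29 and 1.72 in SFA.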

How the data were processed

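Diaphragm RNA of 20 mice was hybridised, one mouse per array, to 1-color Agilent mouse arrays, and per the labels the images were read with Agilent Feature Extraction 10.7.3.1. The deposited scanner files hold, per spot, a linear intensity that the software had background-corrected, with probe positions on NCBI37 (mm9). A deposited table of log2 values normalized by the authors in GeneSpring holds group means only, so it gave differences and no test. Replicates are separate mice.

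Here, outlier spots (92 to 204 of 59305 per array) were left out, log2 of the processed signal was averaged per probe, and the array's 75th percentile was subtracted. Of 55681 probes, 36931 were well above background on at least 4 of 20 arrays and were tested. Group means were fitted with limma 3.58.1 (R 4.3.3) over all 20 arrays, p-values were adjusted by Benjamini-Hochberg over all tested probes, and a probe was called at a 2-fold change and an adjusted p under 0.05. The code was tested on simulated data. The number of arrays limits the precision.

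Named were the 10 members, 16 other clock genes (2 more of that list are not reported here), the called and a few other genes of the clock-following and glucocorticoid lists, and the 5 genes at each end of r to Dbp and to Arntl, leaving out predicted and accession names. The members and lists were chosen with earlier results of these data known. The 7 marker lists, for muscle, macrophages, fibroblasts and matrix, mesothelium, adipocytes, liver and B and plasma cells, were averaged per array. Alternatives were quantile normalization, normexp with offset 50, other filters, slide or replicate number as a block, fits of the 2 groups compared, the methods' test with unequal variances, and leaving out each array. Others, with the 5′ to 3′ index, and all those for the glucocorticoid list were chosen after seeing the data.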

Additional observations from a re-analysis of the deposited data

Results flagged for a closer look

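Of 190 groups of 4 mice examined (38 genes in 5 groups), 15 held a mouse set apart from the other 3 by a gap past Dixon's limit, and chance flags about 1 group in 20. Among the members, Dbp reached 6.06 in 1 NTS mouse where the next was 5.07, Clock reached 1.59 in 1 NTS mouse where the next was -0.29, Arntl reached 1.18 in 1 NTS mouse where the next was 0.61, and Hlf reached 0.87 in 1 SFA mouse where the next was -0.45. The Dbp and Clock values belong to NTS replicate 4, the array of lowest 5′ to 3′ index in its group, and the Arntl value to NTS replicate 2. Among the other clock genes, Bhlhe40 reached 2.74 in 1 control mouse and was as low as 1.88 in 1 NTL mouse, Btrc reached -0.34 in 1 LFA mouse and Csnk1d reached 4.78 in 1 NTL mouse. Tipin reached 3.14 in 1 control, 2.41 in 1 NTS and 2.82 in 1 NTL mouse. Of the clock-following genes, Tcap reached 10.4 in 1 control mouse, and Usp2 reached 5.01 in 1 control mouse and 3.55 in 1 NTL mouse and was as low as 2.80 in 1 SFA mouse. The control values of Tipin, Tcap and Usp2 belong to control replicate 2, the array of lowest 75th percentile signal.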

How the results depend on the processing

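All 180 alternative values of the median difference of the 8 members other than Arntl and Clock, over 6 comparisons, and 1793 single-member values moved by less than 1 SD between mice. Only 1 moved further, Per2 in SFA, -1.34 with normexp against -2.12. Counts of called list genes changed more, in order clock, clock-following and glucocorticoid lists. LFA against control gave 1, 3 and 1 in the main setting. It gave 0, 1 and 0 by quantile normalization and 1, 1 and 0 with the slide block. It gave 0 clock genes with detection on all arrays, 2 without the array of lowest index in each group, and 0 glucocorticoid genes without a filter. It gave 0, 0 and 0 in a fit of those 2 groups alone, and 7 clock-following and 2 glucocorticoid genes with the index as covariate. NTL against control gave 9 clock-following genes, but 4 by quantile normalization, 5 with normexp, 3 with the slide block, 4 in the fit of 2 groups and 5 without the array of lowest index in each group. NTL against NTS gave 0, 2 and 0. It gave 0 clock-following genes with the slide block, and 1 clock-following gene in the fit of 2 groups. It gave 1 glucocorticoid gene by quantile normalization and with normexp, 5 clock-following and 2 glucocorticoid genes with the covariate, and 1, 5 and 1 without the lowest-index arrays. The covariate called 1 clock-following gene in LFA against SFA. The methods' test with unequal variances called 0 clock genes in every comparison. With any 1 array left out the counts ran from 0 to 1, 0 to 3 and 0 to 1 in LFA against control, 0 to 0, 3 to 9 and 1 to 2 in NTL against control and 0 to 2, 1 to 3 and 0 to 2 in NTL against NTS. In LFA against control the clock count was 0 without control replicate 1, 3 or 4 or LFA replicate 1, 3 or 4. In NTL against NTS it was 2 without NTS replicate 4 and 1 without NTL replicate 3. The clock-following count was 0 without LFA replicate 1 or 2. The glucocorticoid count was 0 without any control replicate, LFA replicate 1, 2 or 4 or NTL replicate 1 or 4. Comparisons of SFA and NTS with control kept 0 calls in all these settings. The cause of these changes was not tested.

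With replicate number as a block, LFA against control gave 1 clock gene and 0 glucocorticoid genes, and no other count moved by over 1.5 times. Same-numbered mice did not consistently deviate together, with r over 0.1 in 14 of 40 pairs and a range of -0.71 to 0.77. Mice of unlike number were not compared, and all arrays of replicate 1 were on slide 2. The check therefore cannot tell whether the number marks a shared condition. The authors' table gave no count because it holds group means. With 4 mice per group, a member at the detection limit such as Per3 could not be separated at any of these settings.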
